A study of Mus musculus with 8 samples.

Results

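Cd28 and Hdc are genes best known from immune cells, and both gave RNA in mouse platelets. They are described here with 8 partner genes, the T cell genes Cd3e, Cd3g, Cd4 and Ctla4 and the mast cell and basophil genes Cpa3, Fcer1a, Ms4a2 and Slc18a2, which makes 10 of the 55487 genes in the tables. The 10 genes were chosen from measured levels in these same libraries, Cd28 and Hdc because they were detected and the partners because they mark the cells in which both genes are usually studied. Their levels and their difference between genotypes are therefore given as a description.

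Platelets are cell fragments without a nucleus, and their RNA comes from the megakaryocytes that shed them. The libraries came from platelets of male mice aged 13 weeks, 4 labelled Dnmt3a+/-, with 1 copy of the DNA methyltransferase gene Dnmt3a given as lost, and 4 labelled WT, their littermates. Blood was taken from the heart and spun to platelet-rich plasma, platelets were pelleted, and cells carrying the red cell marker Ter119 or the leukocyte marker CD45 were pulled out on beads. Each mouse gave 1 library of polyadenylated RNA. The sources used here do not say by what means the Dnmt3a allele was produced.

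CD28 is a receptor on T cells that binds CD80 and CD86 on antigen-presenting cells and adds a second, costimulatory signal to that of the T cell receptor. CTLA4 binds the same ligands and restrains the response, and the CD3 chains, Cd3e and Cd3g among them, carry the T cell receptor's own signal. HDC, histidine decarboxylase, makes histamine from histidine. Mast cells and basophils are its best known sites, and both carry the high-affinity IgE receptor, whose alpha and beta chains are the products of Fcer1a and Ms4a2. SLC18A2, also called VMAT2, loads histamine, serotonin and other monoamines into secretory vesicles, including the dense granules of platelets.

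Total counts ran from 15620972 to 22160394 in the Dnmt3a+/- libraries and from 15185218 to 17398666 in the WT libraries. Of the 55487 genes, 7362 had enough counts to be tested. Levels are given as CPM, counts per 1000000 counts of a library after TMM scaling, or as TPM, transcripts per 1000000. TPM is corrected for length and is the scale used here for levels between genes. Where counts of different genes are set side by side, they are not corrected for length, and longer transcripts give more counts. Platelet genes dominated, with Pf4, a chemokine of platelet granules, at a mean of 18070 TPM. RNA of Dnmt3a itself was not below the WT range in 2 of the 4 Dnmt3a+/- libraries. Its RNA level does not give the genotype, since the kind of allele is not stated. Dnmt3a was at 9.94, 11.5, 24.2 and 19.5 CPM in Dnmt3a+/- replicates 1 to 4, against 21.1, 22.04, 19.7 and 18.2 CPM in WT replicates 1 to 4. Replicates 3 and 4 labelled Dnmt3a+/- lay above or inside the WT range, so the differences of Cd28, Hdc, Slc18a2 and several list genes are also given without these 2 libraries. WT replicate 1 stood apart in red cell RNA, with 126852 counts of the beta globin gene Hbb-bs, against 5371 to 11084 in the Dnmt3a+/- libraries and 3699 to 5412 in the other WT libraries. Alas2, the haem synthesis gene of red cells, had 6774 counts there, against 163 to 385 in the Dnmt3a+/- libraries and 109 to 127 in the other WT libraries.

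Cd28 (ENSMUSG00000026012, chromosome 1, 60716800 to 60773359, plus strand, GRCm38) was detected in all 8 libraries with 449 counts at the least. The Dnmt3a+/- libraries held 624, 587, 600 and 831 counts, against 470, 568, 449 and 557 counts in the WT libraries. Its mean over the 8 libraries was 9.055 TPM, and 31% of the 7362 tested genes had a higher mean. Slc18a2, with a mean of 15.49 TPM, ranked above it, with 24.4% of tested genes higher, and Hdc below it, at 3.411 TPM and 46.9%.

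The T cell partner genes had 0 counts or very few. Cd3e and Cd3g had 0 counts in all 8 libraries. A count of 0 allows up to 3 counts, which at the length of a gene's shortest annotated coding transcript, 1462 nt for Cd3e and 412 nt for Cd3g, would be 0.112 to 0.162 TPM of Cd3e depending on the library. On that limit, taken per library, Cd28 was at least 48.5-fold higher than Cd3e in every library, and at least 11.2-fold higher than Cd3g. These limits cover counting error only.

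Cd4, the coreceptor of helper T cells, had 0 counts in the Dnmt3a+/- libraries and 1 count each in WT replicates 2 and 4. Ctla4 had 0 counts in the Dnmt3a+/- libraries and 2 counts in WT replicate 4 alone, where its level was 0.32 TPM. Cd28 was at 9.71 TPM in that library. Ctla4 and Icos, the costimulatory receptor gene with 0 counts in all 8 libraries, lie next to Cd28 on the chromosome, beginning 113641 and 204568 bases beyond its end. The nearest protein-coding genes on the other side were Raph1, with 6 to 15 counts in the Dnmt3a+/- libraries and 3 to 14 in the WT libraries, and Abi2, which acts on the actin cytoskeleton and had a mean of 11.5 TPM. Of the cluster that holds Cd28, Ctla4 and Icos, only Cd28 had more than 2 counts in any of the 8 libraries.

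A list of 27 T cell identity genes was read the same way. Of these, 11 had 0 counts in all 8 libraries, among them Cd2, Cd5, Zap70, Bcl11b and Foxp3, and 24 had fewer than 10 counts in every library. The 3 that reached 10 counts in some library were Lat, Trbc2 and Cd27. Lat, an adaptor that works downstream of the collagen receptor in platelets as well as of the T cell receptor, had 1668 to 2303 counts in the Dnmt3a+/- libraries and 1775 to 2407 in the WT libraries. Without Lat and Trbc2, the other 25 genes summed to 16, 13, 8 and 12 counts in Dnmt3a+/- replicates 1 to 4, against 28, 21, 19 and 13 counts in WT replicates 1 to 4. In every library Cd28 alone held many times more counts than these 25 genes together, without a correction for length. The depletion antigen CD45, encoded by Ptprc, had 4, 27, 8 and 27 counts in the Dnmt3a+/- libraries and 4, 25, 4 and 9 in the WT libraries. Cd79a, a B cell gene, had at most 4 counts and S100a8, a neutrophil gene, at most 9 in any library. Lyz2, the lysozyme gene known from macrophages and neutrophils, was abundant, with 53966 to 86945 counts in the Dnmt3a+/- libraries and 64679 to 103615 in the WT libraries. The part of leukocyte RNA in the levels of Cd28 and Hdc was not tested.

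Trbc2, a constant region of the T cell receptor beta chain, was the exception among receptor genes. It held 57, 34, 30 and 48 counts in the Dnmt3a+/- libraries, against 56, 53, 29 and 33 in the WT libraries, with a mean of 5.19 TPM. That mean was above the 3.411 TPM of Hdc. The alpha constant region Trac had at most 2 counts in any library. The near-identical Trbc1 had at most 4, so the division of reads between Trbc1 and Trbc2 is uncertain.

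**Figure D1:**
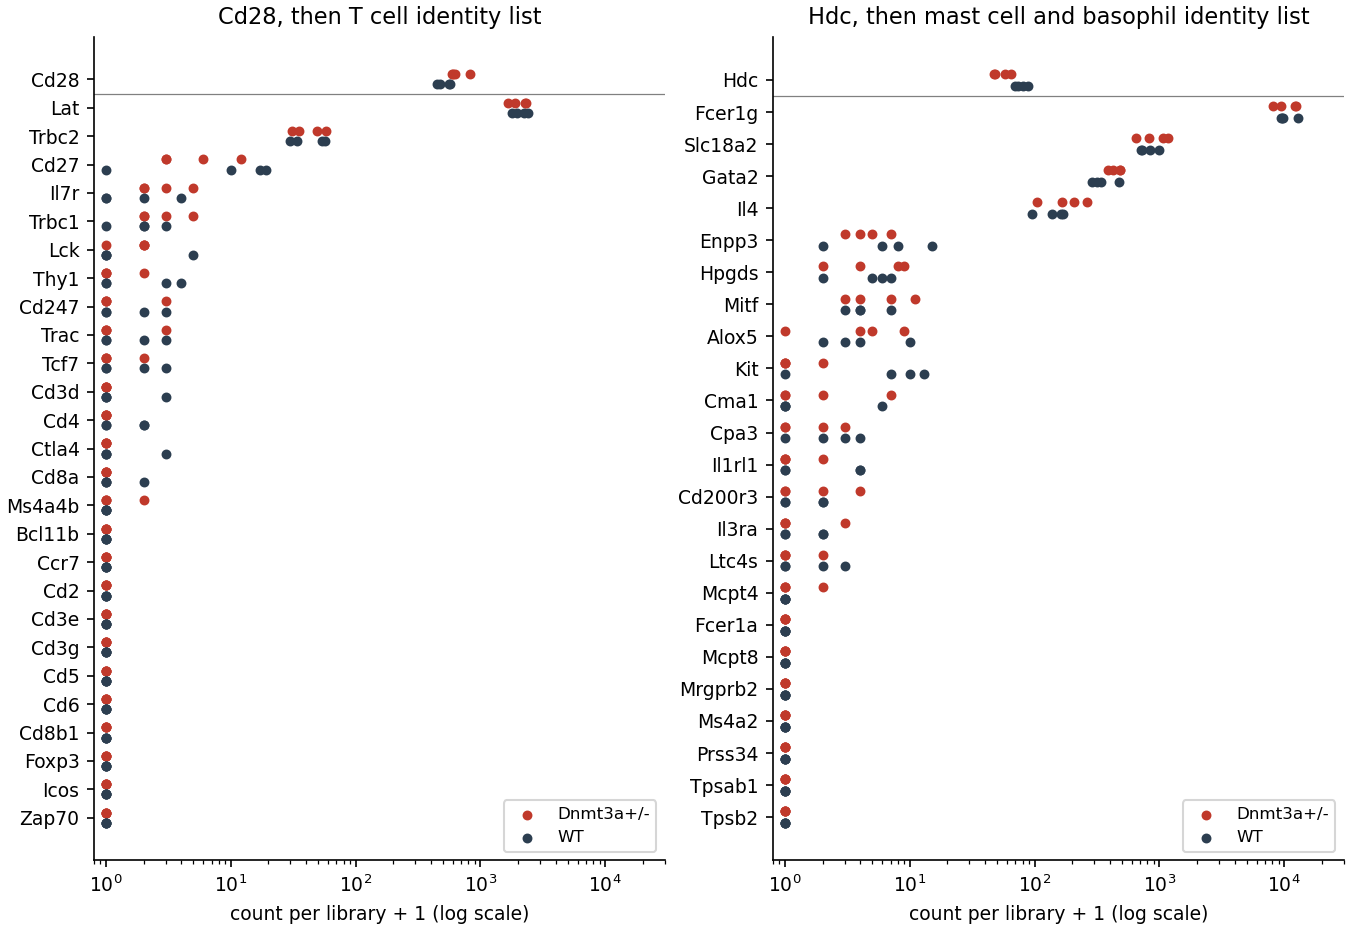
Counts of Cd28 with the T cell identity list (left) and of Hdc with the mast cell and basophil identity list (right), plotted as count + 1 on a log axis, with 1 point per library, Dnmt3a+/- drawn above WT for each gene and 1 T cell list gene not drawn. Cd28 and Hdc lie to the right of most list genes, which sit at 0 or a few counts; Lat, Fcer1g, Slc18a2, Gata2, Il4 and Trbc2 are the list genes that do not.

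Among 10 receptors of the CD28 family and their ligands, 8 had fewer than 10 counts in every library. Cd80 and Cd86, the ligands of CD28, had at most 3 counts in any library, and Pdcd1, the gene of the inhibitory receptor PD-1, had 0 in all 8. The other abundant gene was Cd274, which encodes PD-L1, the ligand of PD-1, with a mean of 15.1 TPM. It was at 54.4, 66.9, 46.6 and 48.6 CPM in the Dnmt3a+/- libraries, against 30.8, 47.8, 41.6 and 41.6 CPM in the WT libraries. The groups overlapped, since WT replicate 2 lay above Dnmt3a+/- replicate 3, and the log2 fold change of 0.42 (SE 0.16) did not pass the test (edgeR quasi-likelihood, adjusted p = 0.856). It was 0.60 (SE 0.19) without Dnmt3a+/- replicates 3 and 4.

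Of 26 genes that act downstream of CD28, 16 were tested, and 9 had fewer than 10 counts in every library. The 4 with the highest mean level were Flna, an actin crosslinker that binds the tail of CD28, at 930 TPM, the adaptor Grap2 at 335 TPM, the kinase Prkcq at 145 TPM and the kinase Fyn at 73.6 TPM. Lck, the T cell kinase of the pathway, had at most 4 counts in any library. Flna, Grap2, Prkcq and Fyn are also known from the platelet's own adhesion and collagen receptor signalling.

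Hdc (ENSMUSG00000027360, chromosome 2, 126593667 to 126619299, minus strand, GRCm38) was detected in all 8 libraries at a lower depth than Cd28. The Dnmt3a+/- libraries held 57, 47, 46 and 64 counts, against 79, 87, 72 and 69 in the WT libraries. The 95% Poisson interval of the lowest of these counts, 46 in Dnmt3a+/- replicate 3, was 33.7 to 61.4, and that of the highest, 87 in WT replicate 2, was 69.7 to 107. No annotated gene of either strand overlaps Cd28 or Hdc in GENCODE M21.

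The alpha and beta chains of the IgE receptor, which define mast cells and basophils, were not detected. Fcer1a and Ms4a2 had 0 counts in all 8 libraries. On the limit of 3 counts per library at the shortest annotated coding transcript, 826 nt for Fcer1a and 647 nt for Ms4a2, Hdc was at least 7.21-fold higher in TPM than Fcer1a and at least 5.43-fold higher than Ms4a2 in every library. Cpa3, the carboxypeptidase of mast cell granules, had 2, 1, 0 and 0 counts in the Dnmt3a+/- libraries, against 2, 1, 0 and 3 in the WT libraries. Its highest level was 0.29 TPM, in Dnmt3a+/- replicate 1, where Hdc was at 4.48 TPM.

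In a list of 23 mast cell and basophil identity genes, 7 had 0 counts in all 8 libraries, among them the proteases Mcpt8, Prss34, Tpsab1 and Tpsb2, and 16 had fewer than 10 counts in every library. The tested genes were 4. Fcer1g, the signalling chain shared by the IgE receptor and the platelet collagen receptor, was at 1301 TPM, and Gata2, a transcription factor of both megakaryocytes and mast cells, was at 9.62 TPM. Slc18a2 and Il4 were the others. Without these 4, the remaining 19 genes summed to 26, 25, 14 and 25 counts in the Dnmt3a+/- libraries, against 26, 36, 33 and 28 in the WT libraries. In every library this sum of 19 genes was below the count of Hdc alone, again without a correction for length.

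Il4, the gene of the cytokine interleukin 4, which basophils and helper T cells make, had a mean of 24.6 TPM and was more abundant than Cd28 and Hdc. It held 104, 163, 206 and 261 counts in the Dnmt3a+/- libraries, against 94, 136, 169 and 162 in the WT libraries. These ranges overlapped, and the log2 fold change of 0.24 (SE 0.23) was -0.01 without Dnmt3a+/- replicates 3 and 4 (edgeR, adjusted p = 0.998 in all 8 libraries).

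Slc18a2 (ENSMUSG00000025094, chromosome 19, 59260896 to 59296012, plus strand, GRCm38) was the most abundant of the 10 genes. It had 650, 1062, 820 and 1170 counts in the Dnmt3a+/- libraries, against 705, 993, 837 and 727 in the WT libraries. The gene overlaps 1 annotated gene on the minus strand, and the sources used here do not state whether counting used strand. The other steps of histamine handling were low. Hnmt and Aoc1, the enzymes that break histamine down, had at most 4 and 0 counts in any library, and the histamine receptors Hrh1, Hrh3 and Hrh4 had 0 in all 8, with at most 2 for Hrh2. Of the 17 genes of histamine and monoamine handling, 10 had fewer than 10 counts in every library.

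The uptake side of this list was better represented. Slc6a4, the serotonin transporter by which platelets take up serotonin, was at 410 TPM, and Slc22a3, a transporter of organic cations that include histamine, was at 8.77 TPM. Tph1, which makes serotonin's precursor outside the brain, had 1 count in Dnmt3a+/- replicate 4 and 0 in the other 7 libraries. Ddc, the decarboxylase of the serotonin and dopamine pathways and a relative of Hdc, had a mean of 3.39 TPM, close to that of Hdc. It held 49, 66, 63 and 56 counts in the Dnmt3a+/- libraries, against 42, 32, 39 and 41 in the WT libraries. After scaling its groups overlapped, and its log2 fold change of 0.51 (SE 0.23) did not pass the test (edgeR, adjusted p = 0.987). It was 0.64 (SE 0.28) without Dnmt3a+/- replicates 3 and 4.

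The promoters of Hdc and Slc18a2 are shown because these are the amine genes among the 10 whose RNA was measured in every library. A further reason is that RNA of Gata2, which encodes a factor that binds GATA sites, was found in the same platelets. The GATA2 protein was not measured. Each promoter is the RefSeq window of 300 bases around the gene's start on GRCm38.p6, read 5′ to 3′ on the gene's strand. The Hdc window is chr2:126618629-126618928 on the minus strand, and the Slc18a2 window is chr19:59260628-59260927 on the plus strand. Capitals mark a match to AGATAA on either strand.

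Hdc: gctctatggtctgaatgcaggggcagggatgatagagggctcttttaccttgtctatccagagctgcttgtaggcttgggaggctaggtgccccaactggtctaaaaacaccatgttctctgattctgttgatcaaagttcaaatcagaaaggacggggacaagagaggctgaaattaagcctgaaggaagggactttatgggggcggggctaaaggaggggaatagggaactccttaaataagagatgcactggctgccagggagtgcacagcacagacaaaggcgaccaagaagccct

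Slc18a2: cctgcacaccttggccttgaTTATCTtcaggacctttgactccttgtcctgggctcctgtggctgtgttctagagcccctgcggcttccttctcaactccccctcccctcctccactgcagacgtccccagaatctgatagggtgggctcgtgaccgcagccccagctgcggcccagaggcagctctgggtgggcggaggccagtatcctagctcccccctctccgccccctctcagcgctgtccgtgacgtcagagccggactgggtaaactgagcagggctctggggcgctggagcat

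AGATAA, searched on both strands, was found once in the Slc18a2 window, as its reverse complement TTATCT with its first base at position 21, and not in the Hdc window. It occurs in 11.2% of the 32851 promoter windows of the same length. The letters CCGGAA, a core of ETS factor sites, were in neither window and occur in 14.9% of all windows. A match is a description of letters, not a bound site. Of the letters that GATA factors can bind, only AGATAA was searched. A window without that match may still hold a GATA site, and tgatag stands unmarked in both printed windows.

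The next question was whether these levels differed between genotypes. For the whole table, edgeR's quasi-likelihood test called 0 of 7362 genes at an adjusted p under 0.05 (0% called, 362 genes at an unadjusted p under 0.05). Leaving out WT replicate 1, the library with the globin RNA, gave 135 calls, 134 of them lower in Dnmt3a+/-, and DESeq2 gave 9, all lower. Of the 10 genes, 3 passed the filter on low counts, Cd28, Hdc and Slc18a2, and 0 of these 3 were called. The other 7 had too few counts to be tested. In bulk RNA, fewer cells of a type and less RNA per cell cannot be told apart.

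Cd28 was at 41.1, 36.3, 36.3 and 36.0 CPM in Dnmt3a+/- replicates 1 to 4, against 29.9, 30.7, 28.1 and 36.3 CPM in WT replicates 1 to 4. Dnmt3a+/- replicate 1 lay above the other 3 Dnmt3a+/- libraries, which lay close together, 3 WT libraries lay below all of them, and WT replicate 4 lay among them, so the groups overlapped. The means were 37.4 ± 2.44 CPM in Dnmt3a+/- and 31.2 ± 3.51 CPM in WT platelets (SD, n = 4 each). The log2 fold change from the fit across all genes was 0.26 (SE 0.11). It was 0.32 (SE 0.16) without Dnmt3a+/- replicates 3 and 4, and between 0.22 and 0.34 under all 16 alternatives run. In TPM the means were 9.945 ± 0.370 in Dnmt3a+/- and 8.165 ± 1.43 in WT platelets (SD, n = 4 each), and the groups again overlapped through WT replicate 4.

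Hdc had a log2 fold change of the opposite sign. It was at 3.75, 2.91, 2.79 and 2.77 CPM in Dnmt3a+/- replicates 1 to 4, against 5.02, 4.70, 4.51 and 4.49 CPM in WT replicates 1 to 4. All 4 Dnmt3a+/- libraries lay below all 4 WT libraries, with the gap between 3.75 and 4.49 CPM. The means were 3.05 ± 0.470 CPM in Dnmt3a+/- and 4.68 ± 0.247 CPM in WT platelets (SD, n = 4 each), and the log2 fold change was -0.62 (SE 0.17). Without Dnmt3a+/- replicates 3 and 4 it was -0.48 (SE 0.22), and without WT replicate 1 it was -0.58 (SE 0.19). Counting error is large at this depth, since the 95% Poisson interval of the highest Dnmt3a+/- level, 2.84 to 4.86 CPM in replicate 1, spans the lowest WT level. Groups of CPM values without overlap were seen in 2.54% of the tested genes, 187 of 7362, and in 1 of the 3 tested genes of this set. Since Hdc was named with its values known, nothing is read from that share.

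The separation of Hdc was not seen in TPM. Its level was 4.48, 2.64, 2.01 and 2.60 TPM in Dnmt3a+/- replicates 1 to 4, against 3.8, 5.64, 3.09 and 3.03 TPM in WT replicates 1 to 4. Dnmt3a+/- replicate 1 now lay above 3 of the 4 WT libraries. The means of 2.93 ± 1.07 TPM in Dnmt3a+/- and 3.89 ± 1.22 TPM in WT platelets (SD, n = 4 each) differed by less than either SD, and the log2 fold change on log2(TPM + 0.1) was -0.41 (SE 0.29, limma). In TPM 1.82% of the tested genes had groups without overlap, and 0 of the 3 tested genes of this set did.

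Slc18a2 was at 42.8, 65.7, 49.7 and 50.7 CPM in Dnmt3a+/- replicates 1 to 4, against 44.8, 53.7, 52.4 and 47.3 CPM in WT replicates 1 to 4. The Dnmt3a+/- libraries spanned the whole WT range on both sides. The log2 fold change was 0.07 (SE 0.14; edgeR, adjusted p = 0.998) and was -0.06 without Dnmt3a+/- replicate 2, so that 1 library set its sign. It was 0.14 (SE 0.19) without Dnmt3a+/- replicates 3 and 4.

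**Figure D2:**
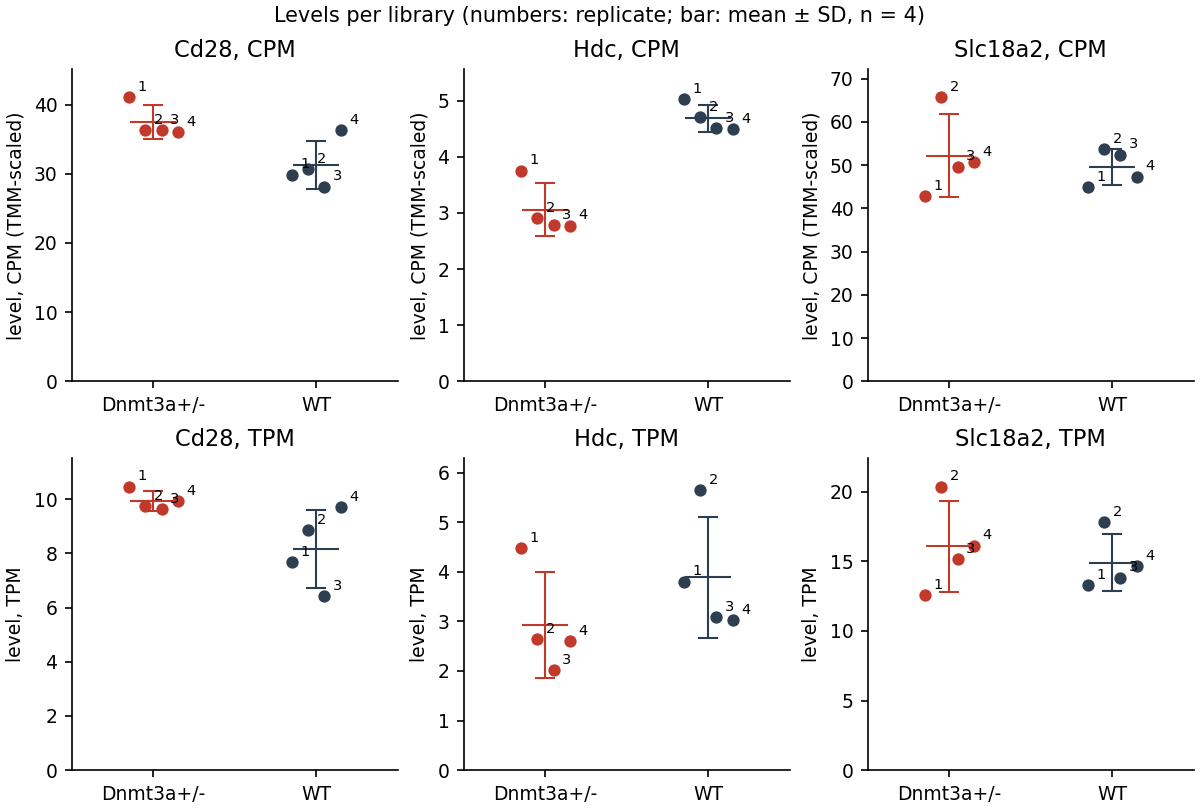
Levels of Cd28, Hdc and Slc18a2 in CPM (upper row) and TPM (lower row), with 1 point per library marked by its replicate number, Dnmt3a+/- left of WT, and bars at the mean ± SD (n = 4 each). Hdc is the gene whose groups are separate in CPM, 2.77 to 3.75 in Dnmt3a+/- and 4.49 to 5.02 in WT platelets, and they overlap in TPM.

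The difference between the scales could be followed in the tables themselves, a step chosen after the data were seen. A TPM is a count divided by a transcript length and scaled, so count over TPM gives back the length that the estimate used, averaged over the transcripts it assigned reads to. The relation was set in each library on 159 genes with a single annotated transcript, with a median error of 2.78% to 2.85%. Depending on the library, 72.3% to 73.0% of these genes came within 5% of their annotated length, and the others missed by more. For Cd28 the implied length was 4304 to 4308 nt in the Dnmt3a+/- libraries and 4304 to 4309 nt in the WT libraries, within that error of the only transcript annotated as coding, which has 4 exons and 4347 nt. The other annotated Cd28 transcripts, of 669 and 1775 nt, are much shorter. Slc18a2 was as steady, at 3743 to 3747 nt over all 8 libraries beside a coding transcript of 3785 nt.

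For Hdc the implied length was 1006, 1352, 1644 and 1348 nt in Dnmt3a+/- replicates 1 to 4, against 1530, 1109, 1501 and 1776 nt in WT replicates 1 to 4. All 8 values lay below the 2392 nt of the coding transcript, which has 12 exons, and above the short transcripts of 354, 529 and 596 nt that are not annotated as coding. The annotation also holds a retained-intron transcript of 4518 nt. The means were 1338 ± 261 nt in Dnmt3a+/- and 1479 ± 276 nt in WT platelets (SD, n = 4 each), and the groups overlapped. The coefficient of variation over the 8 libraries was 18.4%. Of 3780 genes with at least 40 counts and 1 TPM in every library, 94.4% varied less, with a median of 3.45%. These genes were not matched to Hdc in depth or number of annotated transcripts. Hdc, with 46 to 87 counts per library, lay near that minimum count. An average length below that of the coding transcript is what the estimate gives where part of the reads is put on shorter transcripts. The range within each genotype was wider than the difference between the means. How many Hdc reads came from the coding transcript was not tested, since the tables give 1 value per gene.

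The same reading was made for 6 other genes named above. Cd274 was at 3581 to 3582 nt, Slc22a3 at 3462 to 3465 nt and Slc6a4 at 2681 to 2684 nt over all 8 libraries, so these 3 were steady. Trbc2 was at 637 to 651 nt beside its only annotated transcript of 692 nt. Il4 was at 522 to 534 nt, where its coding transcripts have 530, 590 and 605 nt and a transcript not annotated as coding has 541 nt. Ddc varied more, at 974 to 1120 nt in the Dnmt3a+/- libraries and 930 to 1341 nt in the WT libraries. Its longest coding transcripts have 1922, 1954 and 2018 nt, so Ddc too lay below them in all 8 libraries. The Ddc annotation also holds a coding transcript of 799 nt and transcripts of 661 to 1439 nt not annotated as coding. The coefficient of variation was 11.9%.

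**Figure D3:**
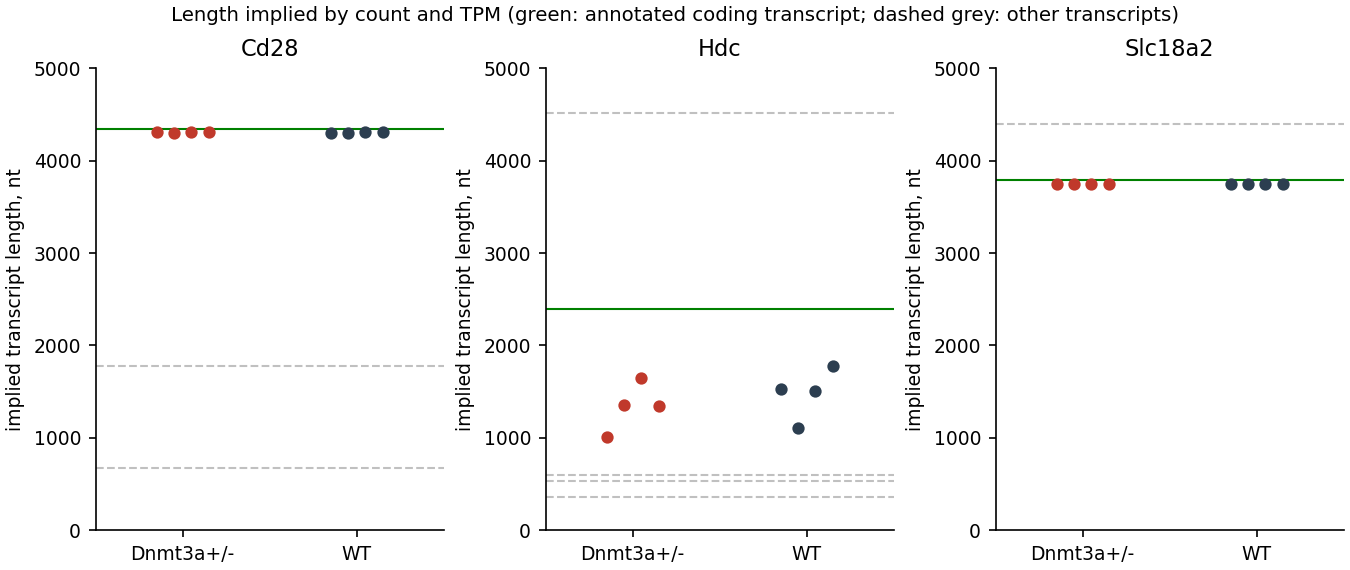
Transcript length implied by count and TPM for Cd28, Hdc and Slc18a2, in nt, with 1 point per library, Dnmt3a+/- left of WT, the annotated coding transcript as a green line and the other annotated transcripts as dashed grey lines. Cd28 and Slc18a2 lie on the coding length in all 8 libraries, and Hdc lies between 1006 and 1776 nt, below its coding length of 2392 nt.

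The positions and levels of the genes beside Hdc were also read. Whether they share reads with Hdc was not tested. Slc27a2, a fatty acid transport gene, ends 5424 bases from Hdc on the opposite strand, so the 3′ ends face each other. It was at 50.6 ± 6.93 CPM in Dnmt3a+/- and 58.8 ± 8.19 CPM in WT platelets (SD, n = 4 each), with groups that overlapped and a log2 fold change of -0.22 (SE 0.13). Gabpb1, an ETS-family partner subunit 8143 bases away on the other side, was at 1.87 ± 0.403 CPM in Dnmt3a+/- and 1.21 ± 0.487 CPM in WT platelets (SD, n = 4 each). Further out, Atp8b4 had at most 9 counts in any library and the deubiquitinase gene Usp8 a mean of 2.61 TPM.

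In each of the 5 gene lists 0 genes were called, beside 0% of all genes. Of the 16 tested genes of CD28 signalling, 12 had a positive and 4 a negative log2 fold change with a median of 0.13, against 3611 positive and 3751 negative of the 7362 genes with a median of -0.005. In 3 of the 16 the CPM groups did not overlap, beside 2.54% of all tested genes, and in TPM all 3 overlapped. They were Lcp2, an adaptor, at 48.4 ± 2.25 CPM in Dnmt3a+/- and 42.5 ± 2.08 CPM in WT platelets, and 2 others (SD, n = 4 each). The kinase Akt1 was at 5.72 ± 0.787 CPM in Dnmt3a+/- and 7.21 ± 0.595 CPM in WT platelets. The transcription factor subunit Nfkb1 was at 0.570 ± 0.250 CPM in Dnmt3a+/- and 1.18 ± 0.439 CPM in WT platelets. The log2 fold changes of Lcp2, Akt1 and Nfkb1 were 0.19 (SE 0.09), -0.34 (SE 0.15) and -1.02 (SE 0.42), with adjusted p-values from edgeR of 0.987, 0.987 and 0.972. Without Dnmt3a+/- replicates 3 and 4 they were 0.25 (SE 0.13), -0.46 (SE 0.20) and -1.39 (SE 0.61). Nfkb1 rested on 3 to 17 counts in the Dnmt3a+/- libraries and 12 to 33 in the WT libraries.

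The 4 tested mast cell and basophil genes had log2 fold changes of -0.09 to 0.25, and the 5 tested genes of histamine and monoamine handling -0.62 to 0.51, with Hdc as the lowest and Ddc as the highest. The sums of the remaining mast cell and basophil genes were 14 to 26 counts in Dnmt3a+/- and 26 to 36 counts in WT platelets. These ranges met at 26, and single genes in the sums went both ways. Kit had 1, 0, 0 and 0 counts in Dnmt3a+/- replicates 1 to 4, against 0, 12, 9 and 6 in WT replicates 1 to 4. Mitf had 3, 10, 2 and 6 counts in the Dnmt3a+/- libraries, against 2, 6, 3 and 3 in the WT libraries. The part of other blood cells in the difference of Hdc was not tested.

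**Figure D4:**
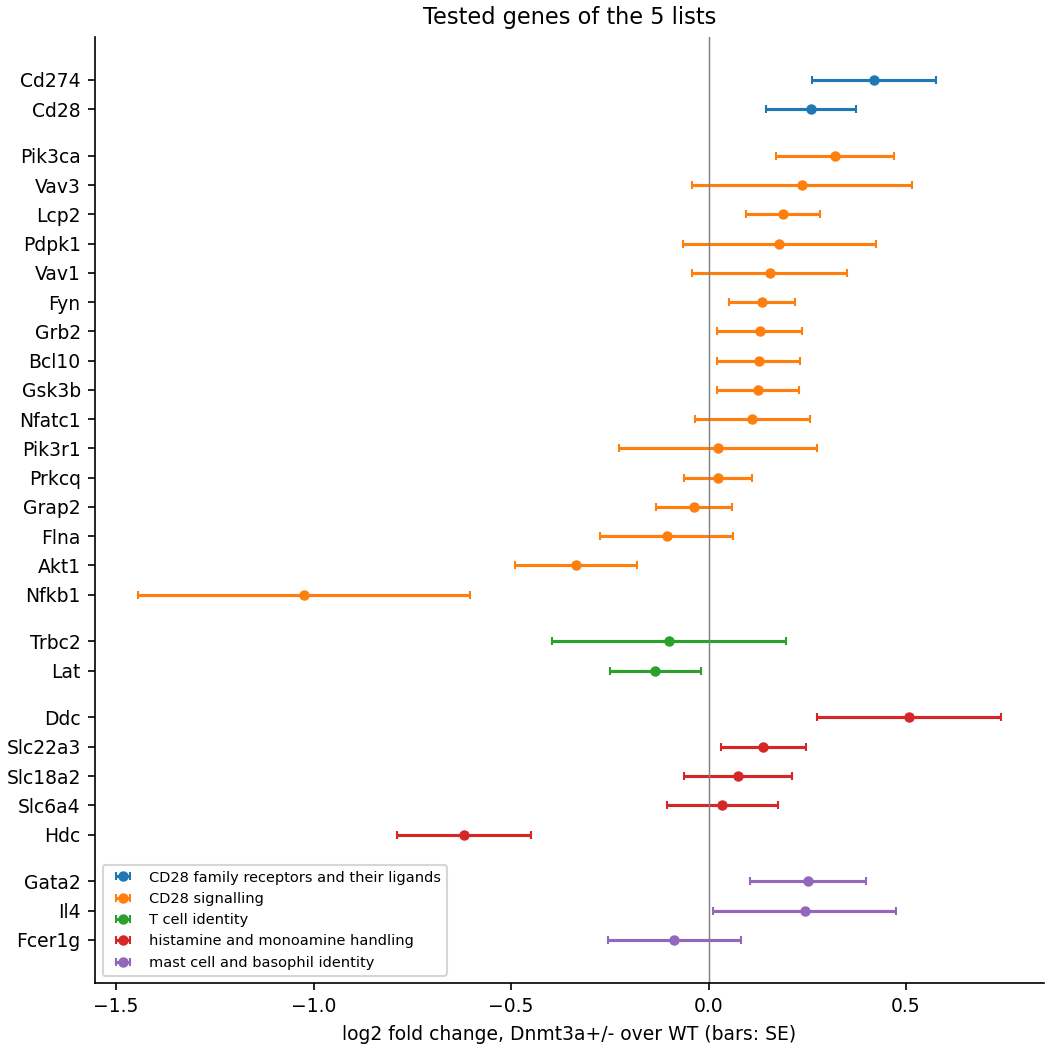
Log2 fold change, Dnmt3a+/- over WT, with bars of 1 SE, for the tested genes of the 5 lists, from the fit across 7362 genes; a gene in 2 lists is drawn once. Hdc at -0.62 and Nfkb1 at -1.02 lie lowest, Ddc at 0.51 and Cd274 at 0.42 highest, and no gene shown passed an adjusted p of 0.05.

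Across the 8 libraries, the genes most like Cd28 in log2(CPM + 0.5) were Eya3, a phosphatase and transcription cofactor (Pearson r = 0.95), the zinc finger gene Zfp207 (0.94), the RNA-binding reader Ythdf1 (0.93), the phosphatase subunit Ppp6r3 (0.92) and Syk, the kinase of the platelet collagen receptor pathway (0.92). Those most like Hdc were the chromatin subunit Vps72 (0.94), the DNA-binding gene Nabp2 (0.94), the glycolysis regulator Pfkfb2 (0.93), Glo1, which detoxifies methylglyoxal (0.93), and the RNA-binding gene Fxr1 (0.91). These are the highest of 7362 values over 8 libraries that share depth and scaling, and they describe these libraries.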

How the data were processed

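Platelet RNA from 4 mice labelled Dnmt3a+/- and 4 WT littermates was sequenced, 1 library per mouse, which the labels call biological replicates. The authors deposited an estimated count per gene and library, written as whole numbers, and a TPM value (transcripts per 1000000). The submitters' processing notes list RSEM, STAR, cutadapt and DESeq2 and build mm10. The sources used here give neither roles and versions nor the annotation release and strand setting. An estimated count depends on how reads shared by transcripts or near-identical genes were divided.

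From these files, counts were rounded and tested with edgeR 4.0.16 under R 4.3.3 (TMM, filterByExpr with minimum count 10 and total 15, glmQLFit, glmQLFTest, Benjamini-Hochberg over 7362 genes, threshold 0.05), Dnmt3a+/- over WT, replicate number not in the fit. The common dispersion was 0.0613. In counts, no 2 libraries were alike within sampling noise (the smallest chi-square divided by its degrees of freedom was 10.3). That value speaks only to a library sequenced more than once. Each library was taken as 1 replicate because its label says so. The procedure was tested on simulated data. TPM was tested with limma 3.58.1 on log2(TPM + 0.1), and DESeq2 1.42.0 served as an alternative beside other scalings, no filter, a pseudocount of 1, a replicate block and libraries left out. Intervals are exact Poisson at 95%, and cover counting error only. Genome positions and transcripts come from GENCODE M21 (GRCm38), which holds 55141 of the 55487 identifiers, and promoter letters from RefSeq (GRCm38.p6). Symbols were taken from the tables.

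The 10 genes and the lists were chosen with earlier results of these data known. Genes named are the 10, Dnmt3a, genes past the threshold and the 4 tested genes highest in mean TPM of each list, the blood cell markers, the 5 genes most correlated with Cd28 or Hdc and the 2 nearest coding genes on each side; any others, such as Cd274, Ddc, Trbc2 and those without overlap, were named after their values were seen. The implied transcript length was computed with Python 3.11.15 by a Theil-Sen line through count over TPM against length, using 159 genes with 1 annotated transcript and at least 200 counts and 5 TPM. Of the listed genes, 2 are counted in their lists and not reported here singly.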

Additional observations from a re-analysis of the deposited data

Results flagged for a closer look

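In 39 genes, each group of 4 libraries was searched for 1 library far from the other 3, and 7 of 78 groups had such a library. The nominal rate of about 1 in 20 holds for independent groups. These groups share the same libraries, so no excess is read from it. Dnmt3a+/- replicate 1 accounted for 4 of the 7. That library was the highest of its group for Cd28, at 41.09 CPM beside 36.01 to 36.34, and for Hdc, at 3.753 CPM beside 2.773 to 2.906. It was also the highest for Trbc2, at 3.753 CPM beside 1.817 to 2.102, and the lowest for Nfkb1, at 0.1975 CPM beside 0.6662 to 0.7366. Without that library the log2 fold change was 0.22 for Cd28 and -0.72 for Hdc. In the WT libraries, Grb2, an adaptor, was at 62.58 CPM in replicate 1 beside 50.24 to 51.38, Grap2 at 1179 CPM in replicate 4 beside 974.3 to 995.4, and Bcl10, a signalling scaffold, at 62.33 CPM in replicate 3 beside 72.91 to 75.05.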

How the results depend on the processing

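The count of genes called over the whole table was 0, and it moved under 5 of 16 alternatives: 250 with no filter on low counts (4 higher and 246 lower among 18462 tested), 9 with DESeq2 (all lower), 135 without WT replicate 1, 1 without Dnmt3a+/- replicate 2, and 1 without Dnmt3a+/- replicates 3 and 4 together. Leaving out 1 library gave 0 to 135 calls. The cause was not tested. Cd28 kept a positive log2 fold change (0.22 to 0.34), Hdc a negative one (-0.72 to -0.32), and neither passed the threshold in any alternative. Slc18a2 turned negative without Dnmt3a+/- replicate 2 (-0.0643; range over libraries left out -0.0643 to 0.1655). Slc6a4 turned to -0.0693 without Dnmt3a+/- replicate 1 and -0.0224 without WT replicate 3 (range -0.0693 to 0.1577). Trbc2 turned to 0.0247 without Dnmt3a+/- replicate 3, 0.0848 without WT replicate 1 (range -0.3652 to 0.0848) and 0.1809 without Dnmt3a+/- replicates 3 and 4. Il4 turned to -0.0098 without those 2 libraries. Over all tested genes, the deviations of same-numbered libraries from their group means had correlations of 0.0771, 0.113, 0.114 and -0.0978. With the replicate block 0 genes were called, and 494 had an unadjusted p under 0.05 (edgeR quasi-likelihood test), against 362 in the main fit. Cd28 was then 0.26, Hdc -0.62 and Slc18a2 0.06. Whether the numbers pair the samples was not settled by these values. Hdc rests on 46 to 87 counts per library, which limits its precision.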
